A study of Mus musculus with 8 samples.

Results

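The cathepsins, the main proteases of the lysosome, were followed through 10 genes, Ctsb, Ctsc, Ctsd, Ctse, Ctsf, Ctsh, Ctsk, Ctsl, Ctss and Ctsz, in 4 cell groups of injured mouse liver. The members were taken by their gene symbols, and all 10 were found among the 21968 named genes of the libraries. All 10 also passed the filter on low counts, which left 14404 genes to be tested. The groups were F4/80high cells with β-galactosidase activity (b-gal+), F4/80high cells without it (b-gal-), cells sorted for EpCAM (EpCAM-positive) and hepatocytes. There were 2 libraries a group, all of bulk RNA sequencing, and each library pooled the cells of 2 mice. Whether libraries with the same number share mice is not given in the sources used here, so p-values measure the spread between these libraries.

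All mice were Lgr5-LacZ transgenic on a mixed C57BL/6 and CBA background, and all had received 1 µl of carbon tetrachloride (CCl4, a liver toxin) per g of body weight in rapeseed oil 6 days earlier, by 1 injection into the peritoneum. Their age was 10 to 12 weeks per the sample labels, while the series text begins at 7 weeks. No uninjured liver was among the libraries analysed here, so the values show differences between cell groups after injury and not a response to it. The b-gal+ and b-gal- cells both bound an antibody to F4/80, a macrophage surface protein encoded by Adgre1, and were separated by a fluorogenic substrate of β-galactosidase, the enzyme that the LacZ reporter encodes. The EpCAM-positive cells were sorted with an antibody to the epithelial protein EpCAM, and the series text calls them cholangiocytes, the lining cells of bile ducts. Hepatocytes were pelleted at low speed.

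Cathepsins are made as inactive precursors, carried to endosomes and lysosomes mostly by mannose 6-phosphate tags, and switched on by removal of a propeptide at acid pH. Most are cysteine proteases of the papain family (Ctsb, Ctsc, Ctsf, Ctsh, Ctsk, Ctsl, Ctss and Ctsz), whereas Ctsd and Ctse are aspartic proteases. Macrophages use them to break down engulfed material and, with Ctss and Ctsl, to trim the invariant chain that guards major histocompatibility complex (MHC) class II. Many lysosomal genes carry the hexamer CACGTG near their start, the core of the element that factors of the MiT/TFE family (Tfeb, Tfe3, Mitf and Tfec) bind.

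RefSeq promoter windows of 300 bases (250 before and 50 after the gene start, GRCm38.p6) were found for 7 of the 10 members, and Ctsb, Ctse and Ctsh had no entry. The letters searched, on both strands, were CACGTG, the longer TCACGTGA that contains it, GAAA followed after any 2 bases by GAAA (a form of the interferon-stimulated response element, ISRE), GAGGAAGT (a form of the site of the macrophage factor PU.1) and TGAGTCA (the AP-1 site). CACGTG was found in the windows of Ctsd, Ctsf and Ctsl, against 7.15% of all 32851 windows. Only the Ctsd window held TCACGTGA (0.974% of all windows), and only that of Ctss held the ISRE form (3.44%). GAGGAAGT was found for Ctss and Ctsc (3.20%), and TGAGTCA for no member (5.20%). A match describes the letters and shows neither binding nor a cause. The windows of Ctsd, Ctsf and Ctss are shown up to 10 bases after the start as examples of genes higher in the b-gal+ cells (given further on), Ctsd and Ctsf for CACGTG and Ctss for the ISRE form. The window of Ctsl, with CACGTG 236 bases before its RefSeq start, is not shown, and Ctsl was not higher in the b-gal+ cells. All starts here are those of RefSeq. For Ctsd, Ctsf and Ctsl they lie inside the gene positions given further on, which are from GENCODE. Capitals mark the matches, and each line runs 5′ to 3′ along the gene.
Ctsd, aspartic protease, chr7:142387818-142388077, minus strand, CACGTG 245 bases and TCACGTGA 99 bases before the start: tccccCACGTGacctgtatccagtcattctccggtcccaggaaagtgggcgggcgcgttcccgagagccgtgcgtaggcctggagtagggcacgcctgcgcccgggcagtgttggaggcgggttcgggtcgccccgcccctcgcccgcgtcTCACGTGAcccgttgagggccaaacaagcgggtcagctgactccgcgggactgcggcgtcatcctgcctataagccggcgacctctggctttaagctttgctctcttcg
Ctsf, cysteine protease, chr19:4854915-4855174, plus strand, CACGTG 79 bases before the start: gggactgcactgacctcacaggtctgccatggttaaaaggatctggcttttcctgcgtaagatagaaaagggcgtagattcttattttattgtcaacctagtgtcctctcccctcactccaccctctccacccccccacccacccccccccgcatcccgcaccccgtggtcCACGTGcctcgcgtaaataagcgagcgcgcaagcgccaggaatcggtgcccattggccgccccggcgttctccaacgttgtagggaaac
Ctss, cysteine protease, chr3:95526536-95526795, plus strand, the ISRE form 21 bases before the start and GAGGAAGT, on the other strand, across it: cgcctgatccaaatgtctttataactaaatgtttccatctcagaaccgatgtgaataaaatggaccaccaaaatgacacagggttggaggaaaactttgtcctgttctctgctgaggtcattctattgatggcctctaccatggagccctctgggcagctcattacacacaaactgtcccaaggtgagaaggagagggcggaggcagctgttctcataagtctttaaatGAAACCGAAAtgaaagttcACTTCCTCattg

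The libraries held 16948568 to 24549242 reads assigned to named genes. Levels are given as CPM, read counts per 1000000 reads, after scaling by the trimmed mean of M-values (TMM), and levels are compared between genes only per kilobase of the principal transcript. The scaling bears on every comparison with hepatocytes. With plain library totals the median of all genes tested moved up by 0.948 (b-gal+ cells), 1.095 (b-gal- cells) and 1.373 (EpCAM-positive cells) on the log2 scale against hepatocytes, and by -0.152 (b-gal+ against b-gal- cells), -0.431 (b-gal+ against EpCAM-positive cells) and -0.279 (b-gal- against EpCAM-positive cells) elsewhere.

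Marker genes were read beside the labels, as sums of CPM over each list. Kupffer cell markers (9 genes, among them Clec4f and Cd5l) summed to 32650 and 28650 CPM in the b-gal+ libraries, 3043 and 2079 in the b-gal- libraries, 1050 and 228 in the EpCAM-positive libraries, and 322 and 224 in hepatocytes. Sinusoidal endothelial markers (8 genes, among them Ptprb and Stab2) summed to 3488 and 2606 CPM in the b-gal+ libraries, 16370 and 19080 in the b-gal- libraries, 6862 and 5762 in the EpCAM-positive libraries, and 349 and 893 in the hepatocyte libraries. The endothelial sum was thus highest in the b-gal- F4/80high libraries and the Kupffer cell sum in the b-gal+ libraries. The EpCAM-positive libraries carried cholangiocyte markers (2060 and 6598 CPM, 8 genes) but also B and plasma cell markers (4097 and 1605 CPM, 5 genes), which reached at most 72.8 CPM in any other library. Adgre1 itself had 1731 and 1361 CPM in the b-gal+ libraries and 311 and 134 in the b-gal- libraries. The transcript of Lgr5, the gene named in the Lgr5-LacZ reporter, had 0 and 5 reads in the b-gal+ libraries, 1 and 1 in the b-gal- libraries, 7 and 0 in the EpCAM-positive libraries, and 91 and 175 in hepatocytes. The b-gal+ gate itself was set by cleavage of the substrate, and its relation to Lgr5 was not tested. Glb1, the mouse's own lysosomal β-galactosidase (a gene named outside the naming rule), had 136 and 80.9 CPM in the b-gal+ libraries, against 68.5 and 49.7 CPM in the b-gal- libraries, a difference that was not called (log2 difference 0.84 ± 0.28, SE; limma, adjusted p = 0.0772).

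**Figure D1:**
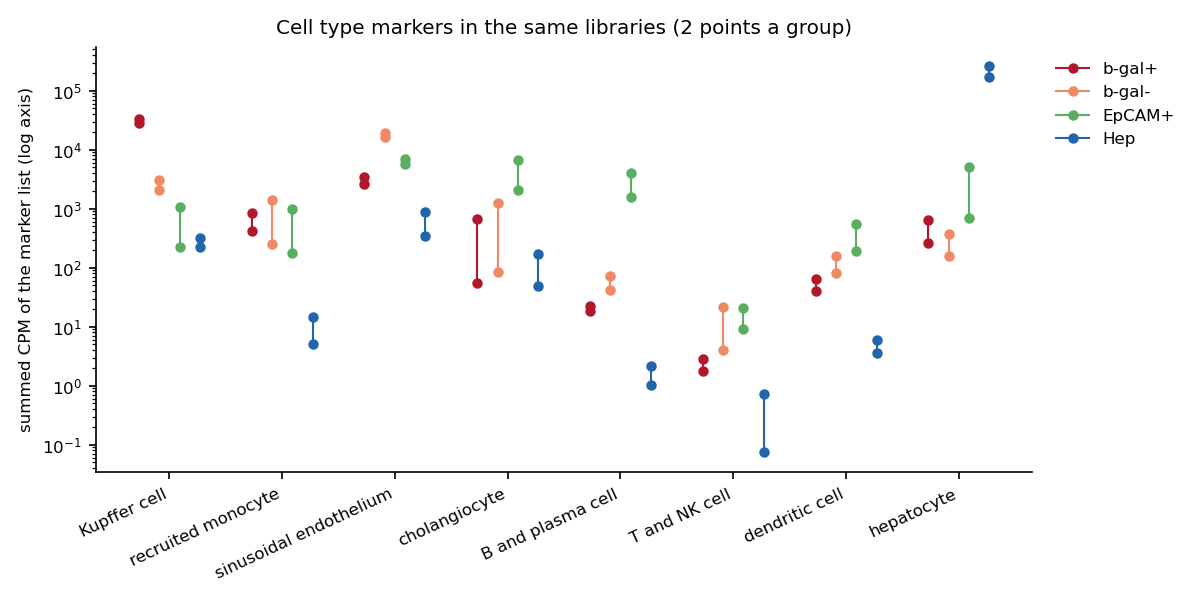
Summed CPM of 8 marker lists (log axis) in each library, with the 2 libraries of a group joined by a line. Kupffer cell markers stand highest in the b-gal+ libraries and endothelial markers in the b-gal- libraries.

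The b-gal+ F4/80high cells carried the most cathepsin RNA. Reads of the 10 genes made up 2.65% and 2.43% of all reads in the b-gal+ libraries, 0.865% and 0.538% in the b-gal- libraries, 0.580% and 0.272% in the EpCAM-positive libraries, and 0.292% and 0.302% in hepatocytes. The 95% exact (Clopper-Pearson) interval ran from 2.64% to 2.66% for the first b-gal+ library and from 0.861% to 0.869% for the first b-gal- library, and such intervals cover counting error only. Shares did not overlap between the b-gal+ cells and any other group. After TMM scaling, the 10 genes summed to 24896 and 22507 CPM in the b-gal+ libraries, 7331 and 4463 in the b-gal- libraries, 4091 and 1829 in the EpCAM-positive libraries, and 5288 and 5736 in the hepatocyte libraries. On that scale hepatocytes stood above the EpCAM-positive cells and within the b-gal- range, and the b-gal+ libraries remained highest. In bulk libraries, more cells of a type and more RNA per cell cannot be told apart.

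**Figure D2:**
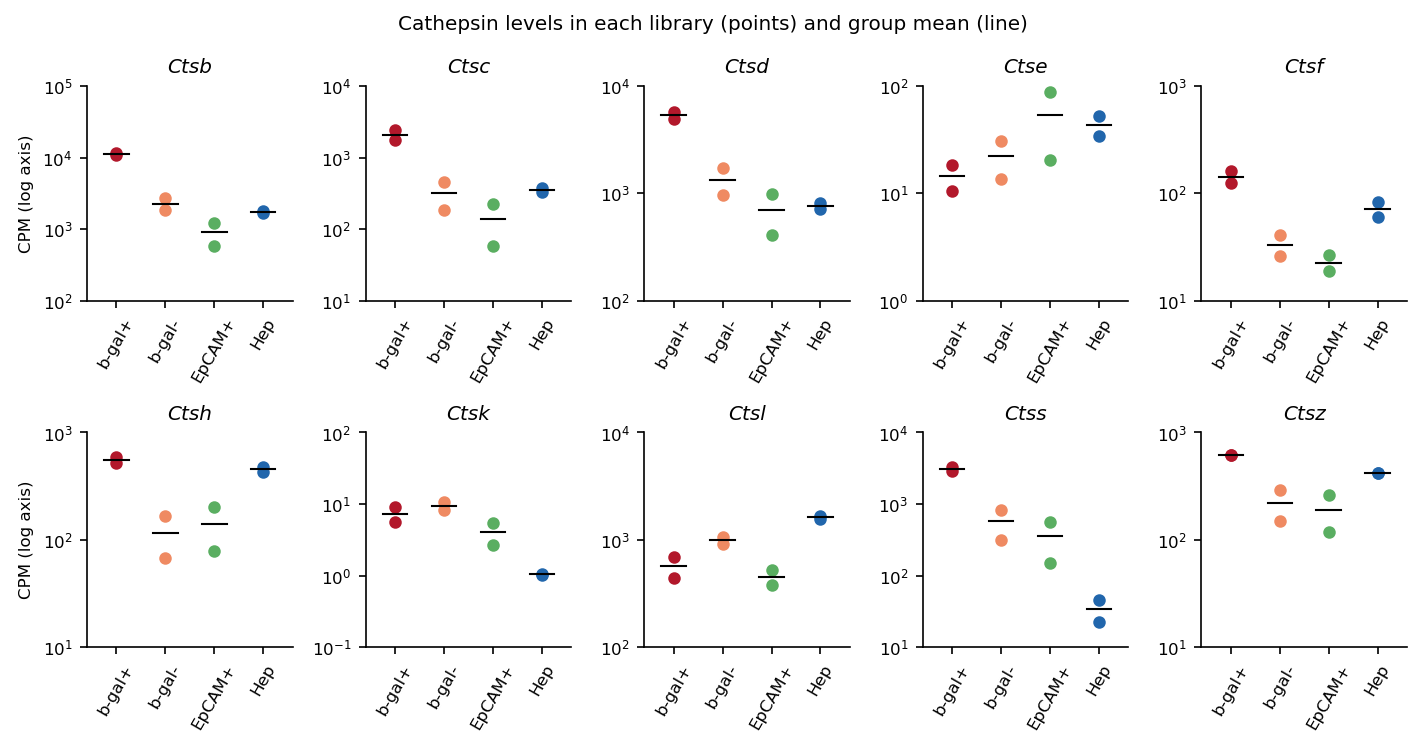
CPM (log axis) of the 10 cathepsins in each library (points) with the group mean (line), groups from left to right b-gal+ F4/80high, b-gal- F4/80high, EpCAM-positive and hepatocytes. Ctsb, Ctsc, Ctsd, Ctsf, Ctsh, Ctss and Ctsz are highest in both b-gal+ libraries, Ctsl in both hepatocyte libraries, and Ctse in no group that stands apart from the next.

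Among the cysteine endopeptidases, Ctsb (chr14:63122462-63145923, plus strand), which also trims peptides from their carboxyl end, was the member with the most reads. It had 11743 and 10804 CPM in the b-gal+ libraries, 2719 and 1819 in the b-gal- libraries, 1233 and 587 in the EpCAM-positive libraries, and 1701 and 1808 in the hepatocyte libraries. Both b-gal+ libraries stood above all 6 others, and the b-gal- libraries stood just above hepatocytes. Ctsb was 5.06-fold higher in b-gal+ than in b-gal- cells (log2 difference 2.34 ± 0.56, SE; limma, adjusted p = 0.0250), 6.42-fold higher than in hepatocytes (2.68 ± 0.56, adjusted p = 0.00526) and 13.2-fold higher than in EpCAM-positive cells (3.73 ± 0.56, adjusted p = 0.00413). With a single library left out, the difference from b-gal- cells ran from 2.049 to 2.632. Its call was not kept when either b-gal+ library or b-gal- replicate 2 was left out. Of the exon bases of Ctsb, 774 (12.8%) overlap those of Fdft1 on the other strand, which had 6809 reads in the 8 libraries together, and whether the counting used strand is not given in the sources used here.

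Ctss (chr3:95526786-95556403, plus strand) encodes the invariant chain protease of macrophages, dendritic cells and B cells, which stays active at neutral pH. Its levels were 2924 and 3307 CPM in the b-gal+ libraries, 832 and 312 in the b-gal- libraries, 557 and 148 in the EpCAM-positive libraries, and 45.9 and 22.4 in the hepatocyte libraries. The b-gal+ libraries were highest and hepatocytes lowest, without overlap, while the b-gal- and EpCAM-positive libraries overlapped each other. Ctss was 95.6-fold higher in b-gal+ cells than in hepatocytes (log2 difference 6.58 ± 0.72; limma, adjusted p = 0.000249), higher than 99.6% of the differences of all genes tested in that comparison. It was also 15.7-fold higher in b-gal- cells (3.97 ± 0.72, adjusted p = 0.00259) and 8.84-fold higher in EpCAM-positive cells (3.14 ± 0.72, adjusted p = 0.00780) than in hepatocytes, the last being lost without hepatocyte replicate 2 (adjusted p = 0.0700). Against the b-gal- cells, Ctss was 6.10-fold higher in b-gal+ cells (2.61 ± 0.72, adjusted p = 0.0411), and against the EpCAM-positive cells 10.8-fold (3.43 ± 0.72, adjusted p = 0.0124). Single libraries moved these values, and the call against b-gal- cells was not kept when either b-gal+ library was left out. Without b-gal- replicate 1 or 2 the log2 difference from b-gal- cells was 3.318 or 1.9 (the second not called, adjusted p = 0.233), and without EpCAM-positive replicate 1 or 2 that from EpCAM-positive cells was 4.395 or 2.485. Against hepatocytes the b-gal- difference became 3.264 or 4.682 and the EpCAM-positive difference 2.185 or 4.095 in the same way.

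Ctsl (chr13:64359337-64370890, minus strand), a broad endopeptidase of lysosomes, ran the other way. It had 691 and 439 CPM in the b-gal+ libraries, 1072 and 921 in the b-gal- libraries, 524 and 380 in the EpCAM-positive libraries, and 1554 and 1678 in the hepatocyte libraries. Hepatocytes were highest, the b-gal- libraries came next without overlap, and the b-gal+ and EpCAM-positive libraries overlapped. Against hepatocytes Ctsl was 2.93-fold lower in b-gal+ cells (log2 difference -1.55 ± 0.32; limma, adjusted p = 0.00507) and 3.61-fold lower in EpCAM-positive cells (-1.85 ± 0.32, adjusted p = 0.00225), and both calls were lost with plain library totals (-0.56, adjusted p = 0.138, and -0.43, adjusted p = 0.224). The order of b-gal- cells and hepatocytes also rested on the scaling, since that difference turned to 0.444 with library totals (adjusted p = 0.216) and was not called either way. Both b-gal+ libraries lay below both b-gal- libraries, but the difference of -0.85 ± 0.32 was not called (adjusted p = 0.107). An antisense gene, Gm47123, covers 1742 of its exon bases (26.8%) and a pseudogene, Gm49230, another 395 (6.1%), and neither has a row of its own among the genes counted.

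Ctsf (chr19:4855130-4860918, plus strand), a further lysosomal endopeptidase able to process the invariant chain, was scarce but clear. Its levels were 162 and 124 CPM in the b-gal+ libraries, 40.7 and 25.9 in the b-gal- libraries, 18.7 and 26.3 in the EpCAM-positive libraries, and 60.5 and 82.5 in the hepatocyte libraries. The b-gal+ libraries were highest, hepatocytes next, and the other groups overlapped at the bottom. Ctsf was 4.31-fold higher in b-gal+ than in b-gal- cells (log2 difference 2.11 ± 0.29; limma, adjusted p = 0.00349), 6.26-fold higher than in EpCAM-positive cells (2.65 ± 0.29, adjusted p = 0.00197) and 2.00-fold higher than in hepatocytes (1.00 ± 0.29, adjusted p = 0.0230; 0.127 without b-gal+ replicate 1 and 0.149 without hepatocyte replicate 1). It was lower than in hepatocytes in b-gal- cells (-1.11 ± 0.29, adjusted p = 0.0140) and in EpCAM-positive cells (-1.65 ± 0.29, adjusted p = 0.00261). With plain library totals the b-gal- difference turned to 0.02 (adjusted p = 0.949) and the EpCAM-positive difference shrank to -0.24 (adjusted p = 0.470). The b-gal- call was also lost without b-gal- replicate 2 (adjusted p = 0.0878) or hepatocyte replicate 2 (0.0759).

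Ctsk (chr3:95499256-95509362, plus strand), the collagen-degrading cathepsin of osteoclasts, was scarce, with the fewest reads in hepatocytes. It had 5.55 and 9.05 CPM in the b-gal+ libraries, 10.6 and 8.37 in the b-gal- libraries, 5.38 and 2.69 in the EpCAM-positive libraries, and 1.03 and 1.04 in the hepatocyte libraries, where it rested on 14 and 13 reads. The hepatocyte libraries were below all others, and the 2 F4/80high groups overlapped. Ctsk was 4.95-fold higher in b-gal+ (log2 difference 2.31 ± 0.40; limma, adjusted p = 0.00212), 6.46-fold higher in b-gal- (2.69 ± 0.40, adjusted p = 0.000958) and 2.82-fold higher in EpCAM-positive cells (1.496 ± 0.395, adjusted p = 0.0143) than in hepatocytes. The last call was lost without EpCAM-positive replicate 1 (adjusted p = 0.0539), hepatocyte replicate 1 (0.0697) or hepatocyte replicate 2 (0.0674).

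The exopeptidases among the cysteine cathepsins were Ctsc, Ctsh and Ctsz. Ctsc (chr7:88278085-88310888, plus strand), a dipeptidyl peptidase that activates the granule serine proteases of leukocytes, had 2401 and 1780 CPM in the b-gal+ libraries, 461 and 182 in the b-gal- libraries, 221 and 58.3 in the EpCAM-positive libraries, and 327 and 380 in the hepatocyte libraries. The b-gal+ libraries stood above all others, and the b-gal- libraries lay on both sides of the hepatocytes. Ctsc was 7.12-fold higher in b-gal+ than in b-gal- cells (log2 difference 2.83 ± 0.67; limma, adjusted p = 0.0238), 18.1-fold higher than in EpCAM-positive cells (4.18 ± 0.67, adjusted p = 0.00492) and 5.86-fold higher than in hepatocytes (2.55 ± 0.67, adjusted p = 0.0141). That last difference lost its call without b-gal+ replicate 1 (adjusted p = 0.0730), hepatocyte replicate 1 (0.0858) or hepatocyte replicate 2 (0.0665). Leaving out b-gal- replicate 1 or 2 moved the log2 difference from b-gal- cells to 3.504 or 2.162, the second without a call (adjusted p = 0.15), and leaving out EpCAM-positive replicate 1 or 2 moved that from EpCAM-positive cells to 5.142 or 3.226. The call against b-gal- cells was also not kept when either b-gal+ library was left out. The b-gal- values of Ctsc differed from those of hepatocytes by -0.28 ± 0.67 (adjusted p = 0.734).

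Ctsh (chr9:90054152-90076089, plus strand), an aminopeptidase, and Ctsz (chr2:174427493-174439039, minus strand), a carboxypeptidase, shared a pattern with high levels at both ends. Ctsh had 587 and 520 CPM in the b-gal+ libraries, 166 and 67.9 in the b-gal- libraries, 203 and 79.1 in the EpCAM-positive libraries, and 433 and 479 in the hepatocyte libraries. Ctsz had 616 and 621 CPM in the b-gal+ libraries, 292 and 150 in the b-gal- libraries, 263 and 119 in the EpCAM-positive libraries, and 417 and 415 in the hepatocyte libraries. For both genes the b-gal+ libraries were highest, hepatocytes second without overlap, and the b-gal- and EpCAM-positive libraries overlapped below them. Ctsh was 5.19-fold higher in b-gal+ than in b-gal- cells (log2 difference 2.38 ± 0.53; limma, adjusted p = 0.0192) and 4.34-fold higher than in EpCAM-positive cells (2.12 ± 0.53, adjusted p = 0.0227). Ctsz was 2.95-fold higher in b-gal+ than in b-gal- cells (1.56 ± 0.43, adjusted p = 0.0414) and 3.49-fold higher than in EpCAM-positive cells (1.81 ± 0.43, adjusted p = 0.0195). For both genes the call against b-gal- cells was not kept when either b-gal+ library was left out. Between b-gal+ cells and hepatocytes neither difference was called (Ctsh 0.28 ± 0.53, adjusted p = 0.685; Ctsz 0.57 ± 0.43, adjusted p = 0.293).

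Against hepatocytes, Ctsh was 4.28-fold lower in b-gal- cells (log2 difference -2.10 ± 0.53; limma, adjusted p = 0.0112) and 3.58-fold lower in EpCAM-positive cells (-1.84 ± 0.53, adjusted p = 0.0198). Ctsz was 2.35-fold lower in EpCAM-positive cells (-1.23 ± 0.43, adjusted p = 0.0412). All 3 calls were lost with plain library totals, where Ctsh differed by -0.955 (adjusted p = 0.125) and -0.42 (adjusted p = 0.469) and Ctsz turned to 0.19 (adjusted p = 0.679). The Ctsz call was also lost with edgeR (adjusted p = 0.0691), with the libraries of these groups alone (0.0676), and without EpCAM-positive replicate 2 (0.187), any single b-gal+ library (0.0557 and 0.0665) or hepatocyte library (0.123 and 0.131). Ctsh lost its b-gal- call without b-gal- replicate 2 (0.0649) or hepatocyte replicate 1 (0.0524) or 2 (0.0612), and its EpCAM-positive call without EpCAM-positive replicate 2 (0.0882) or hepatocyte replicate 1 (0.0765) or 2 (0.0887). Leaving out replicate 1 or 2 of the lower group moved the Ctsh difference to 3.017 or 1.734 (b-gal+ against b-gal-), 2.804 or 1.445 (b-gal+ against EpCAM-positive), -2.736 or -1.452 (b-gal- against hepatocytes) and -2.524 or -1.165 (EpCAM-positive against hepatocytes), and without replicate 2 none of the 4 was called.

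Of the aspartic proteases, Ctsd (chr7:142375911-142388038, minus strand), the major endopeptidase of lysosomes, followed Ctsb. Its levels were 5748 and 4892 CPM in the b-gal+ libraries, 1708 and 964 in the b-gal- libraries, 978 and 408 in the EpCAM-positive libraries, and 715 and 818 in the hepatocyte libraries. The b-gal+ libraries were highest, the b-gal- libraries lay above those of hepatocytes, and the EpCAM-positive libraries overlapped both of these groups. Ctsd was 4.13-fold higher in b-gal+ than in b-gal- cells (log2 difference 2.05 ± 0.52; limma, adjusted p = 0.0303), 6.93-fold higher than in hepatocytes (2.79 ± 0.52, adjusted p = 0.00303) and 8.38-fold higher than in EpCAM-positive cells (3.07 ± 0.52, adjusted p = 0.00582; 3.705 or 2.442 without EpCAM-positive replicate 1 or 2). With a single library left out, the difference from b-gal- cells ran from 1.633 to 2.461. Its call was not kept when either b-gal+ library or b-gal- replicate 2 was left out. A predicted gene, Gm49369, shares 808 exon bases (34.4%) with Ctsd on the same strand and has no row of its own.

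Ctse (chr1:131638306-131675505, plus strand), an endosomal aspartic protease of epithelia and lymphoid cells, showed no called difference in any of the 6 comparisons. It had 18.3 and 10.5 CPM in the b-gal+ libraries, 30.9 and 13.7 in the b-gal- libraries, 87.1 and 20.4 in the EpCAM-positive libraries, and 33.9 and 52.0 in the hepatocyte libraries. Its mean was highest in EpCAM-positive cells, but those libraries enclosed both hepatocyte values, and EpCAM-positive replicate 1 alone gave the highest level. The log2 differences from b-gal+ cells were -0.56 ± 0.71 against b-gal- (limma, adjusted p = 0.641), -1.57 ± 0.71 against hepatocytes (adjusted p = 0.0975) and -1.58 ± 0.71 against EpCAM-positive cells (adjusted p = 0.136). Against hepatocytes the call was made with DESeq2 (adjusted p = 0.0474), with the libraries of these groups alone (0.0189), and without EpCAM-positive replicate 1 (0.0334) or 2 (0.0278). Against EpCAM-positive cells it was made with DESeq2 (0.0302) and without EpCAM-positive replicate 2 (0.0223).

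Counted over the family, 7 of the 10 cathepsins were higher in b-gal+ than in b-gal- cells (Ctsb, Ctsc, Ctsd, Ctsf, Ctsh, Ctss and Ctsz) and none was lower, against 10.4% of all genes tested called higher and 23.3% called in either direction. The median log2 difference of the 10 was 2.08, beside -0.02 over all genes tested. The libraries of these groups did not overlap for 8 of the 10 members, Ctsl being the member with the lower b-gal+ values, against 69.0% of all genes. Ctsf held its call in every alternative run, with adjusted p up to 0.0273. The other 6 kept their direction in every alternative but not their call: 4 of the 10 were called with edgeR's quasi-likelihood test, 3 without the filter on low counts and 4 with the libraries of these 2 groups alone. Leaving out b-gal- replicate 1 left 5 calls, either hepatocyte library 2 calls, and b-gal- replicate 2 or any b-gal+ library 1 call. Kupffer cell markers moved in the same direction (8 of 9 higher, median log2 difference 3.84), endothelial markers in the other (7 of 8 lower, median -3.20), and their part in the cathepsin differences was not tested.

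In b-gal+ cells against hepatocytes, 6 members were higher (Ctsb, Ctsc, Ctsd, Ctsf, Ctsk and Ctss) and 1 lower (Ctsl), against 29.5% of all genes called higher and 29.6% lower, so that 7 of 10 stood beside a background of 59.2%, and the libraries did not overlap for any of the 10 (82.4% of all genes). The count was 5 without b-gal+ replicate 1 or hepatocyte replicate 1. The median of the 10 was 1.65, beside 0.10 over all genes. Ctsz was also called higher with plain library totals (1.56, adjusted p = 0.0121) and with the libraries of these groups alone (0.57, adjusted p = 0.0344). With library totals 7 members were higher and none lower, against 50.9% and 16.4% of all genes. Against EpCAM-positive cells, the b-gal+ excess covered Ctsb, Ctsc, Ctsd, Ctsf, Ctsh, Ctss and Ctsz, 7 of 10, and no member was lower (14.7% of all genes higher, 17.9% lower, 32.5% called). The median of these 10 differences was 2.38, beside -0.03 over all genes, and 9 of 10 did not overlap (66.1% of all genes), with 2 called (Ctsc and Ctsf) when the libraries of these 2 groups were fitted alone and 4 without b-gal+ replicate 1 or replicate 2, where Ctsh, Ctss and Ctsz were not called (adjusted p = 0.0549 to 0.101). Ctsh and Ctsz were not called without EpCAM-positive replicate 2 either (0.0847 and 0.0653), nor Ctsh without hepatocyte replicate 1 (0.0519) or 2 (0.053). All 6 comparisons draw on the same 8 libraries, so their counts are not independent.

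In b-gal- cells against hepatocytes, 2 members were higher (Ctsk and Ctss) and 2 lower (Ctsf and Ctsh), with 33.5% of all genes called higher, 29.7% lower and 63.2% in all. The median of the 10 was -0.49, beside 0.17 over all genes, and 9 of 10 did not overlap (86.2% of all genes). In EpCAM-positive cells against hepatocytes, Ctsk and Ctss were higher and Ctsf, Ctsh, Ctsl and Ctsz lower, with 33.5% of all genes called higher, 29.1% lower and 62.5% in all. Here the median was -1.14, beside 0.145 over all genes, and 8 of 10 did not overlap (80.8% of all genes). Ctsk and Ctss stayed higher with plain library totals in both comparisons, where none of the lower calls held. On that scale 2 of the 10 members were called in EpCAM-positive cells, and Ctsb (1.49, adjusted p = 0.0332) and Ctsd (1.89, adjusted p = 0.00994) were called higher in b-gal- cells. The counts were 2 without b-gal- replicate 2 or hepatocyte replicate 2 for b-gal- cells, and 3 and 2 without hepatocyte replicates 1 and 2 for EpCAM-positive cells. Between b-gal- and EpCAM-positive cells, limma called none of the 10, 3 had an unadjusted p under 0.05 (Ctsb, Ctsk and Ctsl), edgeR called 0 and DESeq2 called 2, against 12.2% of all genes called by limma (5.63% higher, 6.57% lower). Without EpCAM-positive replicate 1, limma called 2 (Ctsc and Ctsk). The libraries did not overlap for 3 of 10 (55.7% of all genes). The nearest to a call was Ctsl, with a log2 difference of 1.15 ± 0.32 (limma, adjusted p = 0.0618) and both b-gal- libraries above both EpCAM-positive libraries.

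**Figure D3:**
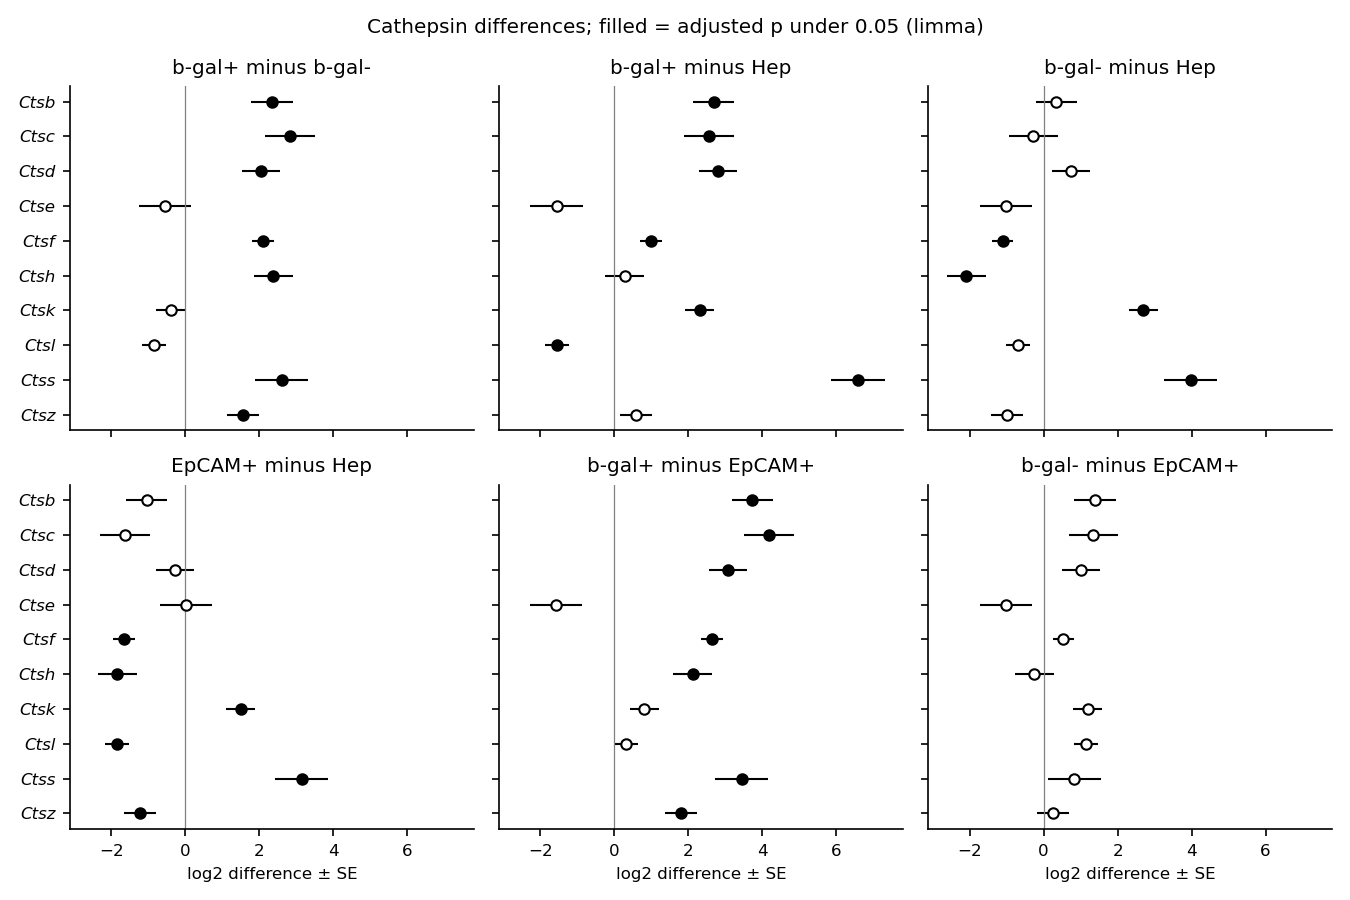
Log2 differences of the 10 cathepsins with their standard errors in the 6 comparisons, filled where limma's adjusted p was under 0.05. The 7 filled points of the first panel lie between 1.56 and 2.83, and Ctss against hepatocytes reaches 6.58.

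The order of the cathepsins within a group was read per kilobase and depended on the length used. Per kilobase of principal transcript, Ctsd, Ctsb and Ctss led the b-gal+ cells with 2501 ± 285, 2377 ± 140 and 2299 ± 200 CPM per kb (SD, n = 2) and overlapped each other, followed by Ctsc with 838 ± 176. Ctsl made up 3.68% and 2.54% of the summed level per kb of the 10 genes in the b-gal+ libraries, 17.7% and 26.3% in the b-gal- libraries, 14.4% and 24.2% in the EpCAM-positive libraries, and 35.02% and 34.93% in hepatocytes. Ctss had 22.6% and 27.8% of that sum in the b-gal+ libraries, 20.03% and 12.9% in the b-gal- libraries, 22.2% and 13.7% in the EpCAM-positive libraries, and 1.502% and 0.677% in the hepatocyte libraries. Hepatocytes were led by Ctsl (820 ± 44.3 CPM per kb), ahead of Ctsb (370 ± 15.9) and Ctsd (360 ± 34.3), which overlapped. In b-gal- and EpCAM-positive cells the top 4 places were shared by Ctsd, Ctsl, Ctsb and Ctss, with overlap between neighbours. With the union of all exons as length, Ctsd came first in hepatocytes (326 ± 31.0 CPM per kb), b-gal- cells and EpCAM-positive cells, and overlapped Ctss at the top in b-gal+ cells. Ctsl (6489 bases by the union, against 1971 for the principal transcript) then came after Ctsd, Ctsb and Ctsz in hepatocytes with 249 ± 13.5 CPM per kb and 18.1% to 18.3% of the sum. In b-gal+ cells Ctsc then had 360 ± 75.6 CPM per kb and lay below Ctsz (429 ± 2.48).

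The ratio of Ctss to Ctsl reads does not depend on the scaling between libraries. It was 4.23 and 7.53 in the b-gal+ libraries, 0.777 and 0.339 in the b-gal- libraries, 1.06 and 0.390 in the EpCAM-positive libraries, and 0.0295 and 0.0133 in the hepatocyte libraries. The b-gal+ libraries were highest and hepatocytes lowest, and the b-gal- and EpCAM-positive values overlapped. Ctsb and Ctsd kept closer to each other, with a ratio of reads of 2.04 and 2.21 in the b-gal+ libraries, 1.59 and 1.89 in the b-gal- libraries, 1.26 and 1.44 in the EpCAM-positive libraries, and 2.38 and 2.21 in the hepatocyte libraries.

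**Figure D4:**
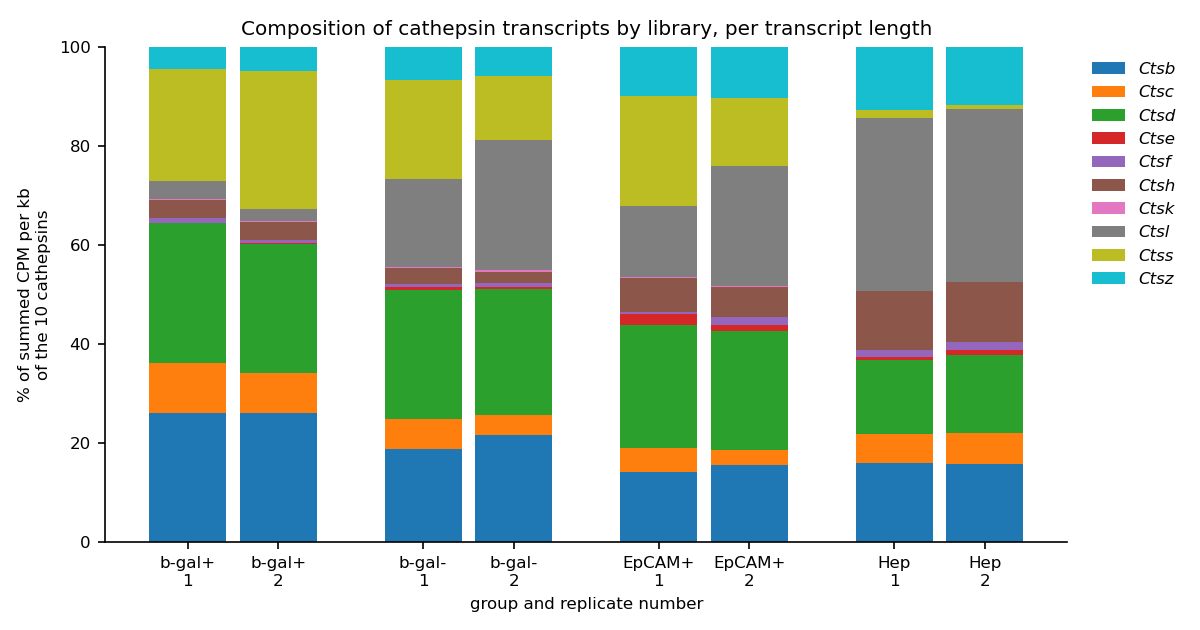
Share of each cathepsin in the summed CPM per kb of the 10 genes, with 1 bar a library and groups from left to right b-gal+, b-gal-, EpCAM-positive and hepatocytes. Ctsl widens to 35.02% and 34.93% in hepatocytes, where Ctss takes 1.502% and 0.677%.

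Replicates of the sorted groups differed in the same direction across much of the family. In the b-gal- cells all 10 members were higher in replicate 1, by 1.16-fold for Ctsl to 2.67-fold for Ctss. In the EpCAM-positive cells 9 of 10 were higher in replicate 1, up to 3.79-fold for Ctsc, 3.76-fold for Ctss and 4.26-fold for Ctse, and Ctsf had a ratio of 0.711. EpCAM-positive replicate 1 also held more Kupffer cell (1050 against 228 CPM), recruited monocyte (993 against 181 CPM) and B and plasma cell (4097 against 1605 CPM) marker RNA and less cholangiocyte (2060 against 6598 CPM) and hepatocyte (704 against 4995 CPM) marker RNA than replicate 2. In the b-gal- libraries, replicate 1 was the higher for recruited monocyte (1403 and 249 CPM), Kupffer cell (3043 and 2079), cholangiocyte (1267 and 84.8) and neutrophil (358 and 35.7) markers. Replicate 2 was the higher for endothelial (16370 and 19080 CPM), B and plasma cell (41.9 and 72.8), T and NK cell (4.07 and 21.3) and dendritic cell (80.0 and 156) markers. The part of these markers in the cathepsin levels was not tested. The Spearman correlation across genes between the replicates was 0.926 for EpCAM-positive cells and 0.980 to 0.985 for the other groups.

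Over the 8 libraries, Ctsb, Ctsc and Ctsd followed each other closely, with Pearson correlations of log2(CPM + 0.5) of 0.976 (Ctsb and Ctsc), 0.978 (Ctsb and Ctsd) and 0.946 (Ctsc and Ctsd). Ctsh and Ctsz reached 0.965, and Ctsl and Ctss -0.612. Such values describe 8 points that fall into 4 groups and share depth and scaling. The gene most like Ctsc was another cathepsin outside the 10, Ctsa (0.9989). Ctss was most like Clec12a (0.9994), a C-type lectin receptor gene of myeloid cells, and Galnt6 (0.9981). Ctsb was most like Cndp2 (0.9968), Ctsd like Atp2b1 (0.9937) and Susd6 (0.9926), Ctsf like Plxnb2 (0.9891) and Klhl9 (0.9879), Ctsh like Bcat2 (0.9915) and Ipo5 (0.9830), and Ctsz like Cnpy3 (0.9845) and Ywhag (0.9833). The closest genes were less close for Ctsl (Alg10b with 0.9709 and Itfg1 with 0.9682) and for Ctse (Lyst with 0.9310 and Arsb with 0.9154). Ctsk, with few reads, was nearest to Rock1 (0.9878) and Gtf2e2 (0.9874). Correlations over 0.9 were common, with 2 genes for Ctse, 664 for Ctsk and 817 for Ctss, and from 89 to 303 for the other members.

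Of 13 further genes with a cathepsin symbol, 5 passed the filter, and 4 reached a mean of 1 CPM in some group. Between b-gal+ and b-gal- cells 1 of the 5 (Ctsa) was called higher, against 10.4% of all genes tested. The other 4, Ctso among them (log2 difference -0.473), had negative differences without a call, and the median of the 5 was -0.904. With plain library totals 1 of the 5 was also called lower, against 15.6% of all genes tested. Ctsa, the serine carboxypeptidase that also protects lysosomal β-galactosidase and neuraminidase, had 1174 and 1040 CPM in the b-gal+ libraries, 406 and 233 in the b-gal- libraries, 252 and 115 in the EpCAM-positive libraries, and 346 and 352 in the hepatocyte libraries. It was higher in b-gal+ cells than in b-gal- cells (log2 difference 1.84 ± 0.41; limma, adjusted p = 0.0194), hepatocytes (1.66 ± 0.41, adjusted p = 0.0111) and EpCAM-positive cells (2.69 ± 0.41, adjusted p = 0.00435). The first of these calls depended on b-gal- replicate 2 (adjusted p = 0.135 without it), b-gal+ replicate 1 (0.0985) and b-gal+ replicate 2 (0.0807), and the second on b-gal+ replicate 1 (0.0573) and hepatocyte replicates 1 (0.0652) and 2 (0.0617). Ctso, a little-studied cysteine cathepsin, had 83.3 and 91.9 CPM in the b-gal+ libraries, 109 and 135 in the b-gal- libraries, 66.2 and 65.0 in the EpCAM-positive libraries, and 131 and 135 in the hepatocyte libraries. Against hepatocytes, Ctso was lower in b-gal+ cells (-0.60 ± 0.15, adjusted p = 0.0113, or 0.0752 without b-gal+ replicate 1) and in EpCAM-positive cells (-1.01 ± 0.15, adjusted p = 0.00108), but with plain library totals these differences turned to 0.385 (adjusted p = 0.0627) and 0.407 (adjusted p = 0.0453). Ctso was also called higher in b-gal- than in EpCAM-positive cells, but not with plain library totals (log2 difference 0.606, limma, adjusted p = 0.0534). Nor was it called with the libraries of these groups alone (0.886, limma, adjusted p = 0.125). Leaving out b-gal- replicate 1 (1.046) or 2 (0.741) or either hepatocyte library (0.877 each) ended this call too. Ctsw, a gene of T and natural killer cells, stayed at or under 6.16 CPM. It was called higher in b-gal- and in EpCAM-positive cells than in hepatocytes, which held 2 and 1 reads. Both Ctsw calls were lost with either hepatocyte library left out. Ctsg, a serine protease of neutrophil granules, stayed at or under 2.38 CPM with 0 reads in 4 of the 8 libraries.

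The genes that make, carry and regulate cathepsins were read next, again for b-gal+ against b-gal- cells, where 10.4% of all genes were higher and 13.0% lower. All 4 MiT/TFE factor genes were higher in b-gal+ cells, with a median log2 difference of 0.99. Mitf had 69.1 and 79.6 CPM in b-gal+ against 26.8 and 11.5 in b-gal- cells (2.04 ± 0.39; limma, adjusted p = 0.0109), Tfeb 55.3 and 63.0 against 27.9 and 24.0 (1.17 ± 0.22, adjusted p = 0.0102), Tfec 122 and 120 against 67.8 and 71.2 (0.80 ± 0.21, adjusted p = 0.0371), and Tfe3 151 and 156 against 99.3 and 80.3 (0.78 ± 0.17, adjusted p = 0.0187). No value of the b-gal- libraries reached a b-gal+ value for these genes, where 69.0% of all genes tested did not overlap. Leaving out b-gal- replicate 2 or b-gal+ replicate 1 left 1 of the 4 calls, and leaving out b-gal+ replicate 2 left none. Tfec also lost its call with plain library totals (adjusted p = 0.0631) and without b-gal- replicate 1 (0.16), hepatocyte replicate 1 (0.0601) or 2 (0.0606).

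Of 15 genes for activation and sorting, 6 were higher in b-gal+ cells and none lower (median log2 difference 0.73), a count that ran from 0 to 8 when single libraries were left out, with 0 without b-gal- replicate 2. Lgmn, the asparaginyl endopeptidase that processes several cathepsin precursors, had 3001 and 2496 CPM in the b-gal+ libraries, against 1128 and 947 in the b-gal- libraries (log2 difference 1.40 ± 0.30; limma, adjusted p = 0.0172). Grn, which encodes progranulin, a lysosomal partner of Ctsd, had 2590 and 2134 CPM against 657 and 452 (2.11 ± 0.35, adjusted p = 0.00653). Lrp1, a large endocytic receptor, had 4401 and 3316 CPM against 1164 and 456 (2.39 ± 0.57, adjusted p = 0.0244), and Gnptg, a subunit of the enzyme that begins the mannose 6-phosphate tag, was higher by 0.83 ± 0.19 (adjusted p = 0.0211). For these 4 genes both b-gal+ libraries stood above both b-gal- libraries, where 69.0% of all genes tested did not overlap. Without b-gal- replicate 2 none of the 4 was called (adjusted p = 0.061 for Grn to 0.176 for Lrp1). Lgmn, Lrp1 and Gnptg were also not called without b-gal+ replicate 1 (0.0909 to 0.124) or replicate 2 (0.0582 to 0.0809), Lgmn and Gnptg without b-gal- replicate 1 (0.0535 and 0.0868), and Lrp1 without hepatocyte replicate 1 (0.0539) or 2 (0.0558). With the libraries of the b-gal groups alone, Lgmn (0.0683) and Lrp1 (0.0635) were not called.

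Of the other lysosomal hydrolases, 14 of 32 were higher in b-gal+ than in b-gal- cells, none was lower, and the median log2 difference was 0.84. The largest called differences were those of Acp5, tartrate-resistant acid phosphatase (659 and 746 CPM in the b-gal+ libraries against 101 and 67.0 in the b-gal- libraries, 3.09 ± 0.52; limma, adjusted p = 0.00680), Pla2g15, lysosomal phospholipase A2 (352 and 381 against 57.1 and 33.7, 3.04 ± 0.34, adjusted p = 0.00170), Acp2, lysosomal acid phosphatase (365 and 399 against 106 and 81.5, 2.04 ± 0.17, adjusted p = 0.000914) and Lipa, lysosomal acid lipase (1166 and 924 against 346 and 248, 1.82 ± 0.39, adjusted p = 0.0165). The count was 3 without b-gal- replicate 2, 5 without b-gal+ replicate 1 and 7 without b-gal+ replicate 2. Acp5 was not called without b-gal- replicate 2 (adjusted p = 0.0536), nor was Lipa without that library (0.12) or b-gal+ replicate 1 (0.0931) or 2 (0.0605), while Pla2g15 and Acp2 held in every alternative run. With a median of 2.08, the 10 cathepsins lay above this list in that comparison, and the difference between the lists was not tested.

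Inhibitors of cathepsins moved in both directions. Of 14 tested, 3 were higher in b-gal+ cells (Cstb, Serpinb6a and Ctla2b) and 2 lower (Ctla2a and Serpina3g). Of all genes tested, 10.4% were called higher and 13.0% lower in that comparison. Cstb, the cystatin of the cytosol, had 101 and 93.5 CPM in the b-gal+ libraries, against 52.5 and 37.2 in the b-gal- libraries (log2 difference 1.13 ± 0.23; limma, adjusted p = 0.0152). Ctla2a had 11.2 and 6.27 CPM in the b-gal+ libraries, against 72.9 and 58.5 in the b-gal- libraries (-2.88 ± 0.33, adjusted p = 0.00181), whereas Ctla2b had 161 and 163 CPM in the b-gal+ libraries, against 33.4 and 30.9 in the b-gal- libraries (2.32 ± 0.38, adjusted p = 0.00611). Both resemble the propeptide of a cysteine cathepsin. As similar copies they may exchange reads, which was not tested, so their split is uncertain. Cstb was not called when b-gal- replicate 2 was left out (adjusted p = 0.109), nor when either b-gal+ library was (0.0887 and 0.0694). Serpina3g, a serpin of a large multigene family, had 38.9 and 27.5 CPM in the b-gal+ libraries, against 211 and 177 in the b-gal- libraries (-2.54 ± 0.32, adjusted p = 0.00254).

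Of 11 partners in antigen presentation, 1 was higher in b-gal+ than in b-gal- cells and 2 were lower (H2-Oa and H2-Ob), beside 10.4% and 13.0% of all genes tested. The higher gene was Ifi30, the lysosomal thiol reductase that works beside Ctss, with 942 and 637 CPM in the b-gal+ libraries, against 167 and 81.3 in the b-gal- libraries (log2 difference 2.73 ± 0.54; limma, adjusted p = 0.0133). H2-Ob, a subunit of a brake on peptide loading, had 2.10 and 3.02 CPM in the b-gal+ libraries, against 13.3 and 29.0 in the b-gal- libraries (-2.74 ± 0.48, adjusted p = 0.00815). Leaving out b-gal- replicate 2 ended both calls (adjusted p = 0.0903 for Ifi30 and 0.0603 for H2-Ob), as did leaving out b-gal+ replicate 1 (0.0821 and 0.0546), and Ifi30 was not called without b-gal+ replicate 2 (0.0507). Cd74, the invariant chain, had 1988 and 6469 CPM in the b-gal+ libraries, against 1711 and 1557 in the b-gal- libraries, 6547 and 2648 in EpCAM-positive libraries, and 35.5 and 46.0 in the hepatocyte libraries, and was higher in b-gal+ cells than in hepatocytes (6.45 ± 0.64, adjusted p = 0.000164). None of the 5 granule serine proteases tested that Ctsc activates was called by limma between b-gal+ and b-gal- cells, where 23.3% of all genes tested were called. Of these 5, none had an unadjusted p under 0.05, and none was called with edgeR or DESeq2.

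**Figure D5:**
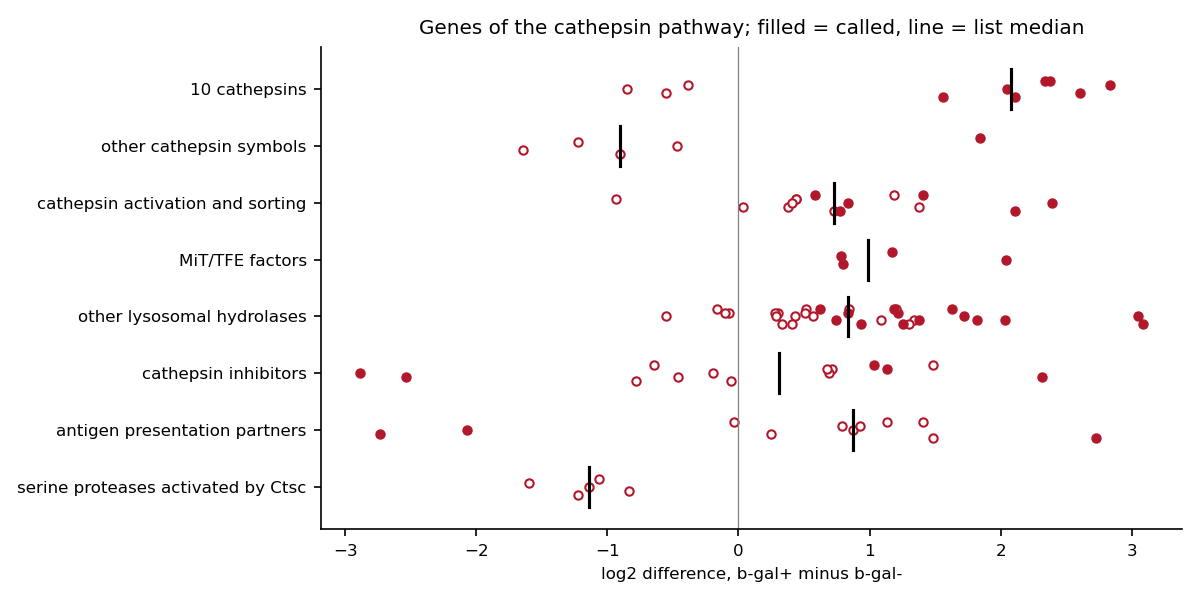
Log2 difference of b-gal+ minus b-gal- cells for each tested gene (points) of the 10 cathepsins and 7 related lists, filled where limma's adjusted p was under 0.05, with the list median as a line. The cathepsin median stands at 2.08 and that of other lysosomal hydrolases at 0.84, while inhibitors lie on both sides of 0.

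Against hepatocytes the same lists read differently. The share of all genes called was 29.5% higher and 29.6% lower for b-gal+ cells, and 33.5% higher and 29.1% lower for EpCAM-positive cells. In b-gal+ cells all 4 MiT/TFE genes were higher, 8 of 15 activation and sorting genes were higher and 1 lower, and 21 of 32 hydrolases were higher and 1 lower. With plain library totals these counts were 12 and 0 of 15, and 29 and 1 of 32, against 50.9% of all genes higher and 16.4% lower. Lgmn had 3001 and 2496 CPM in b-gal+ cells, against 103 and 86.7 in hepatocytes (log2 difference 4.85 ± 0.30; limma, adjusted p = 2.3e-05), and Tfec 122 and 120 against 2.81 and 2.71 (5.22 ± 0.21, adjusted p = 8.54e-06). Among the inhibitors, 6 of 14 were higher and 3 lower, and the lower ones, Pzp, Kng1 and Kng2, encode plasma proteins made by hepatocytes. Kng1, kininogen with its cystatin domains, had 15.4 and 20.96 CPM in b-gal+ cells, against 5841 and 5033 in hepatocytes (-8.20 ± 0.38, adjusted p = 1.05e-05). Of the antigen presentation partners, 10 of 11 were higher in b-gal+ cells than in hepatocytes, and 11 of 11 were higher for b-gal- and for EpCAM-positive cells. In EpCAM-positive cells, 5 of 32 hydrolases were higher than in hepatocytes and 13 lower, with a median log2 difference of -0.43, beside 0.145 over all genes. With plain library totals 22 were higher and 3 lower and the median turned to 0.994, beside 1.366 over all genes, of which 67.1% were higher and 11.5% lower. The largest of these falls among genes with at least 10 CPM was that of Acp5, with 53.5 and 15.8 CPM in the EpCAM-positive libraries, against 219 and 263 in the hepatocyte libraries (-3.02 ± 0.52, adjusted p = 0.00215).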

How the data were processed

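RNA sequencing of 8 libraries from 4 sorted or pelleted liver cell groups (2 libraries each) was analysed from 1 deposited table per library. Reads were assigned to genes with HTSeq on GRCm38.p4 (mm10), per the submitters' processing notes. Not given in the sources used here are the aligner, the annotation, all versions and any use of strand. The table of hepatocyte replicate 1 holds read counts as deposited by the authors. The other 7 deposited tables hold counts multiplied by 1 factor per library (1.081 to 1.542), by a step not given in the sources used here, and division by that factor gave whole reads for 100% of values within 0.01 reads. Rows whose symbols had become dates (14, 0.0514% to 0.182% of reads) were left out.

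Levels are CPM after TMM scaling (edgeR 4.0.16, R 4.3.3). The test was limma 3.58.1 with trend on log2(CPM + 0.5), so that a difference understates that of low genes. It was fitted on all 8 libraries (4 residual degrees of freedom) and the 14404 genes that passed filterByExpr, with Benjamini-Hochberg adjustment over all of them and calls at an adjusted p under 0.05. The recovered counts were also tested with edgeR's quasi-likelihood test and DESeq2 1.42.0. The fits were also run on simulated counts in which few genes differed between groups. That setting differs from these data, so it cannot show how the scaling performs against hepatocytes. Depth was 16948568 to 24549242 reads, so that 3 reads equal 0.122 to 0.177 CPM before TMM scaling. Lengths and positions are from GENCODE M21 (GRCm38), which matched 96.7% of symbols. Levels per kb by the union of exons were added after the data were seen.

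The members and lists were chosen with earlier results of these data known. Named by rule were the 10 members, other cathepsins with a mean of 1 CPM in any group, up to 4 called genes per list and comparison with the largest differences (mean of at least 10 CPM in 1 group), the 2 most correlated genes per member (mean of at least 20 CPM) and up to 2 markers per list. For Ctsb and Ctsc, 1 of the 2 correlated genes is not reported here. Alternatives were the other tests and scalings, no filter, a pseudocount of 2, a replicate block, only the groups compared and each library left out.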

Additional observations from a re-analysis of the deposited data

How the results depend on the processing

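Of 960 refits of the 60 member differences, 826 kept direction and side of the threshold, 84 lost and 25 gained the call, and 25 changed sign. The cause was not tested where a value changed, except that fewer libraries or other scaling define the setting. Members called in b-gal+ against b-gal- cells numbered 4 with edgeR, 3 without the filter, 4 with only these groups, and 1 to 7 with a library left out (all genes 1289 to 4366). With a library left out the count was 2 to 5 in b-gal- cells and 2 to 6 in EpCAM-positive cells against hepatocytes (2 with library totals for the second). For b-gal+ against EpCAM-positive cells it was 4 to 8 (all genes 1953 to 5657), and 2 with only these groups (all genes 2167). For b-gal- against EpCAM-positive cells it was 0 to 2 (all genes 0 to 2982), 2 with DESeq2 (all genes 2855) and 1 with the replicate block, while only these groups gave 0 genes in all.

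With library totals the log2 differences that changed sign were, for b-gal- cells against hepatocytes, Ctsc 0.862, Ctse 0.114, Ctsf 0.022, Ctsl 0.444 and Ctsz 0.156. For EpCAM-positive cells against hepatocytes they were Ctsb 0.385, Ctsd 1.152, Ctsz 0.193 and Ctso 0.407, and for b-gal+ cells against hepatocytes Ctso 0.385. Against EpCAM-positive cells they were Ctsl -0.134 (b-gal+) and Ctsz -0.037 (b-gal-). Ctse in EpCAM-positive cells against hepatocytes was -0.035 with DESeq2 size factors and -0.032 without the filter. With a library left out, ranges that crossed 0 were Ctse -1.127 to 0.019 (b-gal+ against b-gal-), Ctsc -0.949 to 0.394 (b-gal- against hepatocytes), Ctsd -0.909 to 0.354 and Ctse -1.027 to 1.04 (EpCAM-positive against hepatocytes), Ctsl -0.017 to 0.66 (b-gal+ against EpCAM-positive), and, for b-gal- against EpCAM-positive cells, Ctse -2.047 to 0.02, Ctsh -0.93 to 0.429, Ctss -0.124 to 1.786 and Ctsz -0.325 to 0.827. Where 1 library was left in a group, it was assumed to vary like the other groups. By the union of exons, 18 of 40 levels per kb moved by more than 1 SD.

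The replicate number as a block changed 3 of 60 member calls, all gained: Ctsz in b-gal- (adjusted p = 0.0418) and Ctsc in EpCAM-positive cells (0.0294) against hepatocytes, and Ctsl in b-gal- against EpCAM-positive cells (0.0390; limma). Deviations of same-numbered libraries correlated by 0.177 to 0.494, but each comparison has only 2 such pairs and no label says what they share. Depth limits Ctsk in hepatocytes (14 and 13 reads).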
